A study of Mus musculus with 6 samples.

Results

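The interferon-stimulated genes described here are 39 listed genes, and each was found by its symbol among the 54556 genes of the FPKM table. FPKM scales the fragments counted for a gene by its length and by the size of its library. In this table that size followed median-of-ratios factors between libraries, not the total reads. RNA came from whole pancreatic islets of C57BL/6 mice kept on a normal chow diet to 8 weeks of age. In 3 libraries the genotype was Mettl3 flox/flox, and in 3 others it was Mettl3 flox/flox with RIP-Cre, labelled beta-Mettl3-KO. Both groups therefore carry the floxed alleles of Mettl3, the catalytic subunit of the RNA m6A methyltransferase. Only the second group carries the Cre recombinase, driven by the rat insulin promoter, and Cre without floxed alleles was not analysed here. The labels do not say whether each library came from separate or pooled mice, and the p-values then rest only on library-to-library spread, which may be technical.

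Type I interferons bind the IFNAR1 and IFNAR2 receptor chains and activate the kinases JAK1 and TYK2. These phosphorylate STAT transcription factors, which join IRF9 and bind the interferon-stimulated response element (ISRE) in the promoters of target genes. Interferon gamma instead acts through the gamma-activated site (GAS). The induced proteins sense foreign RNA and DNA, block translation and viral replication, mark intracellular membranes for destruction, or feed back on the pathway. Islet cells carry interferon receptors, and expression of these genes in islets is known from type 1 diabetes.

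Libraries held 16398862 to 17691055 gene-assigned reads in the flox/flox group and 16719393 to 18387313 in the labelled-knockout group. Ins1 was lower in the labelled-knockout libraries, at 21186.6 ± 563.9 FPKM against 71100.5 ± 6038.2 (SD, n = 3 each), and the alpha-cell hormone gene Gcg was abundant in both groups, at 8144.3 and 7397.1 FPKM. Mettl3 itself was at 3.42, 2.89 and 3.93 FPKM in the flox/flox libraries and at 4.06, 4.2 and 4.15 FPKM in the others. On the log2 scale it differed by 0.25 ± 0.11 (SE, limma adjusted p = 0.12). Gene-level Mettl3 RNA was thus not lower, and loss of single exons cannot be read from these values. The second group is therefore called labelled knockout throughout. The labelled-knockout libraries also stood apart in markers of cells that are not islet endocrine cells. Over 19 enterocyte markers the summed level was 153.9 to 173.5 CPM (a gene's reads scaled to a common library total) in the flox/flox libraries and 481.1, 2230.3 and 1227.1 in labelled-knockout replicates 1, 2 and 3. Over 20 lymphocyte markers it was 11.2 to 18 CPM against 397.4 to 430.7.

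Promoter sequences show the letters through which these genes are known to be read by interferon signalling. RefSeq promoters on GRCm38.p6, from 250 bases before to 50 bases after a start, were matched for 29 of the 39 genes. The ISRE was searched as GAAANNGAAA and the GAS as TTCNNNGAA, on both strands and in any window of a gene. The ISRE letters were present in 17 of the 29 (58.6%), against 3.99% of 27025 genes with a promoter. The GAS letters were present in 9 of the 29 (31%), against 9.55%. A match describes letters and is no evidence of a bound factor. The 6 windows printed here run from 150 bases before the start to the last base before it, 5′ to 3′ on the gene's strand, with matches in capitals. They were chosen to show single, repeated and overlapping matches in genes that did and did not pass the test below.
Igtp promoter, chr11:58199406-58199555, plus strand: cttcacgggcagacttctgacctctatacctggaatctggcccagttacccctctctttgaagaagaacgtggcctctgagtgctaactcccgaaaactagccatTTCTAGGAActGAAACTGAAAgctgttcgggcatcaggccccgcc
Irgm1 promoter, chr11:48871421-48871570, minus strand: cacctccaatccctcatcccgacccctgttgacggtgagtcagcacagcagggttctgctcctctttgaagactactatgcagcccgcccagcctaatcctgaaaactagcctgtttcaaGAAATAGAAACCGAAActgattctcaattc
Isg15 promoter, chr4:156200819-156200968, minus strand: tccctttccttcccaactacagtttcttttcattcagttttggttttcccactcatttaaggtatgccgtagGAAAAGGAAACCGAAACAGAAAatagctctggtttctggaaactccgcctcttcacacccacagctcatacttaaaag
Ifit1 promoter, chr19:34640739-34640888, plus strand: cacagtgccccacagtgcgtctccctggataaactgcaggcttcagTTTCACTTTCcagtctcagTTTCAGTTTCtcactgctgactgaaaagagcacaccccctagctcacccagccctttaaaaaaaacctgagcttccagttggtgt
Rsad2 promoter, chr12:26456453-26456602, minus strand: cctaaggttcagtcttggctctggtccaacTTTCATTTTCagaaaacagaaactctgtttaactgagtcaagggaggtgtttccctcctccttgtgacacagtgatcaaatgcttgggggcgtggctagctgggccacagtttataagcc
Bst2 promoter, chr8:71537473-71537622, minus strand: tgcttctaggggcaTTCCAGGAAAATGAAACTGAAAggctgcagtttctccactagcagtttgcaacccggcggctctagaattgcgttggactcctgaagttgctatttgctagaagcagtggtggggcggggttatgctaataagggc
Igtp holds a GAS match whose first base lies at -45 and an ISRE match at -34, counted back from the start. The related GTPase gene Irgm1 holds overlapping ISRE matches at -30 and -24. Isg15 holds 3 ISRE matches in a row, at -78, -72 and -66. Ifit1 holds ISRE letters on the other strand at -104 and -85, and Rsad2 at -120. In Bst2 a GAS match at -136 overlaps the first of its ISRE matches, at -130 and -124. Of the 5 genes with a promoter that passed the test as higher, 2 held ISRE letters (Igtp and Eif2ak2), and 15 of the 24 that did not pass or were not tested held them. GAS letters were in 3 of the 5 and in 6 of the 24. Zbp1 and Parp9, which also passed, had no matched promoter, and 5 genes are too few to compare these shares. Among all tested genes called higher, 4.24% held ISRE letters and 8.71% GAS letters. Among all tested genes with a promoter the shares were 3.61% and 8.27%.

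Across the 39 genes, 35 averaged at least 1 FPKM over all libraries and were tested with limma on log2(FPKM + 0.5), a scale that understates the change of low genes. Zbp1 and Oasl1 reached that mean only through the labelled-knockout libraries, so that both were tested because they were high there, and of the other 33 genes 5 passed as higher. At an adjusted p under 0.05, 7 genes were higher in the labelled-knockout libraries: Zbp1, Oasl1, Igtp, Samhd1, Eif2ak2, Parp9 and Trim25. That is 20% of those tested, against 16.9% of all 14497 genes tested, so the share called was near the background. By limma 0 were lower, against 17.2% of all genes. At an unadjusted p under 0.05 the counts were 14 higher (40%, against 22.7% of all genes) and 0 lower (against 23%). Limma with voom weights on recovered reads also gave 7 higher and 0 lower, with Ddx58 in place of Oasl1. The median log2 difference of the 35 was 0.28, against -0.00 over all genes, and 28 of the 35 differences were positive (80%, against 49.4%). In 13 genes (37.1%) all labelled-knockout libraries lay above all flox/flox libraries, against 25.1% of all genes. In 0 genes did they all lie below, against 25.4%. In bulk islet RNA, more cells of a type and more RNA per cell cannot be told apart. The 39 genes drew 9853 to 10630 reads per flox/flox library and 14704 to 19725 per labelled-knockout library.

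**Figure D1:**
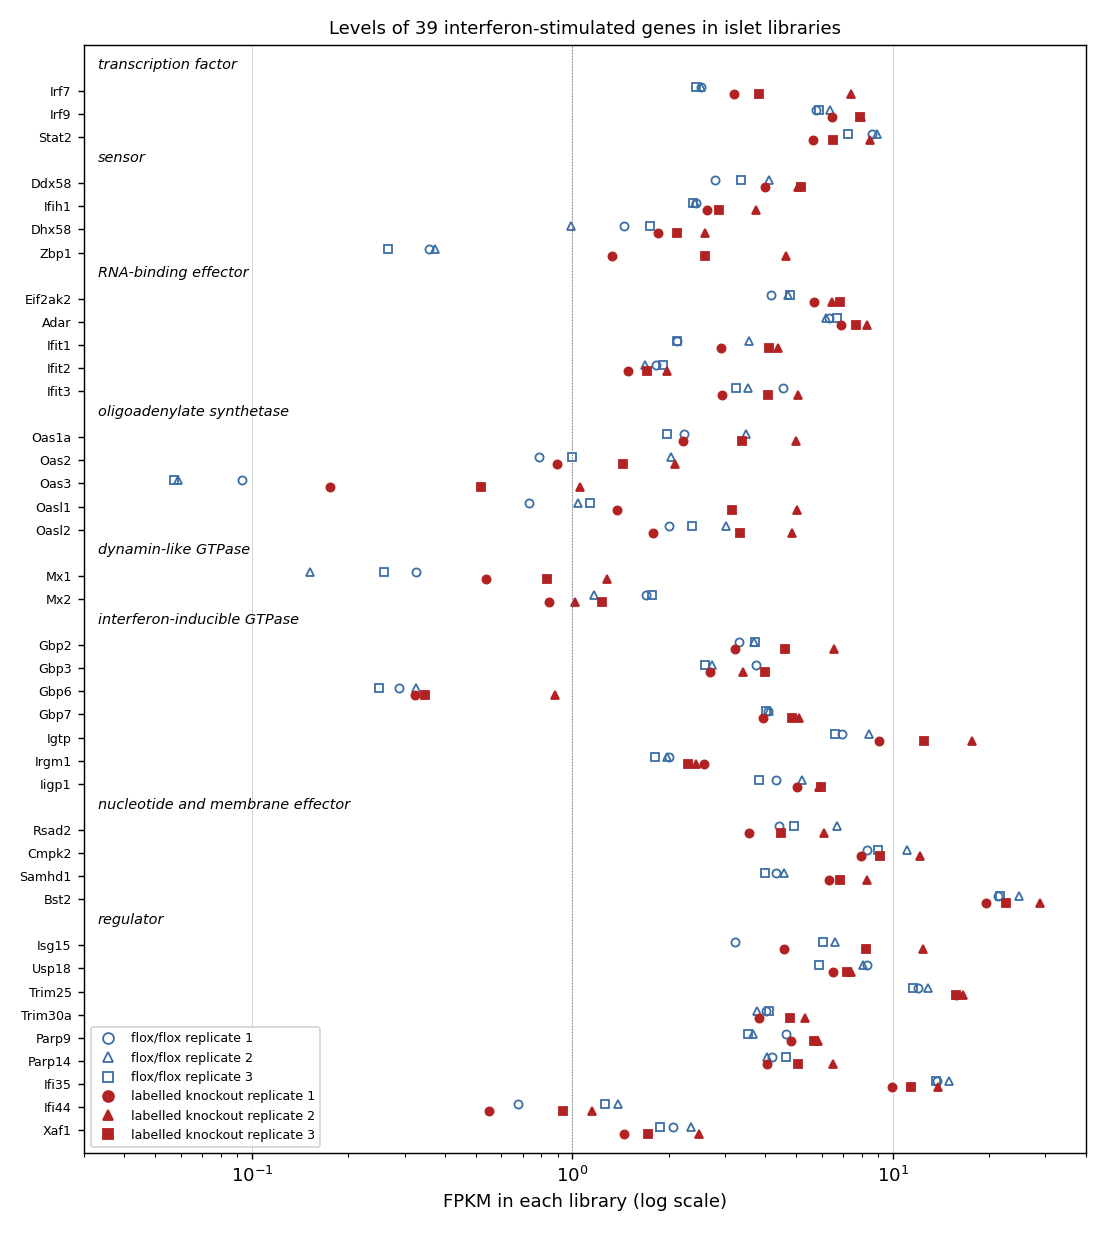
Level of each of the 39 genes in each library, in FPKM on a log axis, grouped by role. Open blue symbols are flox/flox libraries and filled red symbols labelled-knockout libraries, with 1 symbol shape per replicate number, and the dotted line marks 1 FPKM. The red triangle, labelled-knockout replicate 2, is the highest of the red symbols in 33 of the 39 genes.

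Among the transcription factors, none passed the test. Irf7, the factor that amplifies interferon production, was at 2.52, 2.53 and 2.44 FPKM in the flox/flox libraries and 3.21, 7.41 and 3.83 FPKM in the labelled-knockout libraries. The groups did not overlap, and labelled-knockout replicate 2 stood well above the other two of its group. The log2 difference of Irf7 was 0.75 (95% interval 0.11 to 1.38, limma adjusted p = 0.0718), and it passed with labelled-knockout replicate 1 left out (0.97, adjusted p = 0.0371) or replicate 2 left out (0.42, adjusted p = 0.0405). Irf9, the DNA-binding subunit of the type I interferon complex, was at 5.76, 6.37 and 5.91 FPKM against 6.47, 7.98 and 7.93 FPKM. Its groups were also separate, by 0.28 on the log2 scale (95% interval 0.05 to 0.52, limma adjusted p = 0.0652). Stat2, which encodes a further subunit of that complex, was at 8.61, 8.91 and 7.25 FPKM against 5.64, 8.53 and 6.52 FPKM, with overlapping groups.

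Of the 4 sensors of foreign nucleic acid, Zbp1 was the gene that rose. Zbp1 encodes a sensor of left-handed Z-form nucleic acid that can start necroptosis. Its gene (ENSMUSG00000027514, chr2:173206612-173218923, minus strand, GRCm38.p6) had 0.356, 0.373 and 0.267 FPKM in the flox/flox libraries and 1.33, 4.65 and 2.6 FPKM in the labelled-knockout libraries. These rest on 19, 19 and 14 reads against 98, 321 and 190 reads. Every labelled-knockout library was above every flox/flox library, and replicate 2 was the highest. The means were 0.332 ± 0.0567 and 2.86 ± 1.68 FPKM (SD, n = 3 each), and the labelled-knockout libraries were higher by 1.89 ± 0.37 on the log2 scale (SE, limma adjusted p = 0.0103). The RNA helicase sensors did not pass. Ddx58, which encodes RIG-I, was at 2.8, 4.11 and 3.36 FPKM against 4.01, 5.08 and 5.16 FPKM, with a narrow overlap between the highest flox/flox and the lowest labelled-knockout library (log2 difference 0.43, limma adjusted p = 0.0698, and 0.0417 with voom). Ifih1, which encodes the long double-stranded RNA sensor MDA5, was at 2.44, 2.42 and 2.38 FPKM against 2.64, 3.75 and 2.87 FPKM. Dhx58, which encodes their regulator LGP2, was at 1.45, 0.994 and 1.75 FPKM against 1.85, 2.59 and 2.12 FPKM. In Ifih1 and Dhx58 the groups did not overlap, and the log2 differences were 0.29 and 0.51 (limma adjusted p = 0.132 and 0.0855). Reads of Dhx58 may include those of Dhx58os on the opposite strand.

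Of 5 RNA-binding effectors, Eif2ak2 rose. It encodes the double-stranded RNA-activated kinase PKR, which phosphorylates eIF2alpha and stops translation. Eif2ak2 (ENSMUSG00000024079, chr17:78852564-78882573, minus strand) was at 4.18, 4.72 and 4.79 FPKM in the flox/flox libraries and 5.68, 6.48 and 6.87 FPKM in the labelled-knockout libraries. The groups were separate and each was tight, at 4.56 ± 0.339 and 6.34 ± 0.607 FPKM (SD, n = 3 each). The labelled-knockout libraries were higher by 0.43 ± 0.10 on the log2 scale (SE, limma adjusted p = 0.0153). Adar, which edits adenosine to inosine in double-stranded RNA, was at 6.31, 6.21 and 6.69 FPKM against 6.92, 8.32 and 7.69 FPKM, separate by 0.24 on the log2 scale but short of the threshold (limma adjusted p = 0.0711). Adar shares 14.4% of its 50-base words with Chrnb2 on the opposite strand. In the IFIT genes, whose proteins bind the 5′ ends of foreign RNA or assist those that do, the groups overlapped. Ifit1 was at 2.12, 3.57 and 2.13 FPKM against 2.91, 4.39 and 4.1 FPKM, and Ifit2 at 1.83, 1.69 and 1.92 FPKM against 1.49, 1.97 and 1.71 FPKM. Ifit3 was at 4.55, 3.53 and 3.24 FPKM against 2.94, 5.07 and 4.09 FPKM, and 51.2% of its 50-base words are shared with Ifit3b, so its level is uncertain. The log2 differences of Ifit1, Ifit2 and Ifit3 were 0.48, -0.06 and 0.07.

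Most of the oligoadenylate synthetases among the 39 genes make the second messenger that activates RNase L. Oasl1, which lacks that activity and is known to hold back translation of Irf7 mRNA, was the family member that passed. Oasl1 (ENSMUSG00000041827, chr5:114923240-114937915, plus strand) was at 0.735, 1.04 and 1.14 FPKM in the flox/flox libraries and 1.38, 5.02 and 3.16 FPKM in the labelled-knockout libraries. All labelled-knockout libraries were above the others, with replicate 1 close to the flox/flox range. The labelled-knockout libraries were higher by 1.20 ± 0.38 on the log2 scale (SE, limma adjusted p = 0.049). That call was lost when any library other than labelled-knockout replicate 1 was left out (adjusted p 0.0953 to 0.138), and with no filter on low values (0.109). The flox/flox mean of Oasl1, 0.969 FPKM, was itself under the level tested. With labelled-knockout replicate 1 alone the log2 difference was 0.37. Oasl2 was at 2.01, 3.03 and 2.36 FPKM against 1.79, 4.85 and 3.35 FPKM, Oas1a at 2.24, 3.49 and 1.97 FPKM against 2.21, 4.99 and 3.38 FPKM, and Oas2 at 0.787, 2.04 and 0.999 FPKM against 0.894, 2.09 and 1.44 FPKM. In these genes replicate 1 of the labelled-knockout libraries lay within or below the flox/flox range, and replicate 2 lay above it. Oas1a shares 57.6% of its 50-base words with Oas1g. Oas3 was too low to be tested, at 10, 6 and 6 reads against 26, 147 and 76 reads, and with no filter its log2 difference was 0.85 ± 0.30 (SE, limma adjusted p = 0.135).

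The dynamin-like Mx GTPases block viral nucleocapsids, and C57BL/6 mice are known to carry a defective Mx1 allele. Mx1 drew 18, 8 and 14 reads from the flox/flox libraries and 41, 91 and 63 reads in the labelled-knockout libraries, below the level tested. With no filter its log2 difference was 0.86 ± 0.24 (SE, limma adjusted p = 0.0722). Mx2 lay the other way, at 1.7, 1.17 and 1.77 FPKM against 0.849, 1.02 and 1.24 FPKM, with an overlap of the groups and a log2 difference of -0.41 (95% interval -0.88 to 0.06, limma adjusted p = 0.155). Mx2 was the lowest of the 35 differences and passed as lower under quantile normalization (-0.65, adjusted p = 0.0489).

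The interferon-inducible GTPases are immunity-related GTPases and guanylate-binding proteins, and some of them, not all, attack the membranes of vacuoles that hold pathogens. Of 6 genes of this group tested, Igtp, also called Irgm3, rose. Igtp (ENSMUSG00000078853, chr11:58199556-58207591, plus strand) was at 6.93, 8.45 and 6.63 FPKM in the flox/flox libraries and 9.09, 17.7 and 12.5 FPKM in the labelled-knockout libraries. The groups were separate, and the labelled-knockout libraries differed among themselves by more than the lowest of them differed from the flox/flox libraries. The labelled-knockout libraries were higher by 0.75 ± 0.23 on the log2 scale (SE, limma adjusted p = 0.0435). Of the leave-outs of 1 library, Igtp passed without labelled-knockout replicate 1 (0.98, adjusted p = 0.0126) and in no other (0.0633 to 0.123). Igtp overlaps Irgm2 on the same strand and shares 11.8% of its 50-base words with it. The autophagy regulator Irgm1 was at 2.01, 1.97 and 1.81 FPKM against 2.57, 2.43 and 2.29 FPKM, and was the one member highest in labelled-knockout replicate 1. Its log2 difference was 0.27 ± 0.10 (SE, limma adjusted p = 0.0841), with separate groups. Iigp1, an effector of vacuole disruption, was at 4.34, 5.21 and 3.82 FPKM against 5.03, 5.88 and 5.99 FPKM, with an overlap.

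The guanylate-binding proteins did not pass. Gbp2 was at 3.31, 3.69 and 3.72 FPKM against 3.22, 6.54 and 4.6 FPKM, Gbp3 at 3.75, 2.73 and 2.6 FPKM against 2.69, 3.41 and 4.0 FPKM, and Gbp7 at 4.09, 4.12 and 4.02 FPKM against 3.95, 5.1 and 4.86 FPKM. In Gbp2 and Gbp7 labelled-knockout replicate 1 lay below every flox/flox library while replicates 2 and 3 lay above. Their log2 differences were 0.33, 0.13 and 0.16. Gbp6 was too low to be tested, at 26, 28 and 22 reads against 40, 103 and 43 reads, and shares 70.7% of its 50-base words with other genes. For Gbp7 that share was 12.7%.

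Of 4 nucleotide and membrane effectors, Samhd1 rose. It encodes a phosphohydrolase that lowers the deoxynucleotide pool and so limits viral reverse transcription. Samhd1 (ENSMUSG00000027639, chr2:157097533-157135265, minus strand) was at 4.34, 4.59 and 4.01 FPKM in the flox/flox libraries and 6.31, 8.34 and 6.86 FPKM in the labelled-knockout libraries. The groups were far apart relative to their spread, at 4.31 ± 0.291 and 7.17 ± 1.05 FPKM (SD, n = 3 each). The labelled-knockout libraries were higher by 0.66 ± 0.11 on the log2 scale (SE, limma adjusted p = 0.00601). The other genes of this kind showed overlapping groups. Rsad2 and Cmpk2, neighbours whose products act in turn to make a chain-terminating nucleotide, were at 4.42, 6.69 and 4.94 FPKM against 3.55, 6.1 and 4.49 FPKM and at 8.29, 11.1 and 9.01 FPKM against 7.98, 12.2 and 9.13 FPKM. Bst2, the tether of budding virions and the most abundant of the 39 genes, was at 21.4, 24.8 and 21.6 FPKM against 19.5, 28.9 and 22.6 FPKM. Their log2 differences were -0.18, 0.03 and 0.05, with 95% intervals of -0.68 to 0.33, -0.38 to 0.44 and -0.30 to 0.39.

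Of the regulators, 8 were tested and 2 rose, Trim25 and Parp9. Trim25 encodes a ubiquitin ligase that acts on RIG-I signalling. Trim25 (ENSMUSG00000000275, chr11:88999376-89020293, plus strand) was at 12.0, 12.9 and 11.6 FPKM in the flox/flox libraries and 15.8, 16.6 and 15.8 FPKM in the labelled-knockout libraries. It had the smallest log2 difference of the 7 that passed, 0.39 ± 0.07 (SE, limma adjusted p = 0.00613), and the labelled-knockout libraries lay close together. Parp9 (ENSMUSG00000022906, chr16:35938470-35972605, plus strand), whose product works with the ubiquitin ligase DTX3L, was at 4.65, 3.67 and 3.54 FPKM against 4.81, 5.83 and 5.7 FPKM. The gap between the groups was narrow, and the labelled-knockout libraries were higher by 0.42 ± 0.12 on the log2 scale (SE, limma adjusted p = 0.0386). Leaving out replicate 2 or 3 of either group ended the call (adjusted p 0.102 to 0.123). Parp9 and Dtx3l overlap on opposite strands, and Parp9 shares 7.71% of its 50-base words with Dtx3l. Dtx3l was also higher (log2 difference 0.51 ± 0.13 SE, limma adjusted p = 0.0268). The Dtx3l call ended on removal of replicate 1 or 2 of the flox/flox group, or of replicate 2 or 3 of the other group (adjusted p 0.0583 to 0.0926).

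The remaining regulators did not pass. Isg15, the ubiquitin-like modifier, spread widely, at 3.23, 6.59 and 6.06 FPKM in the flox/flox libraries and 4.57, 12.4 and 8.23 FPKM in the labelled-knockout libraries (log2 difference 0.57, 95% interval -0.34 to 1.48). Usp18, which removes ISG15 and dampens receptor signalling, was at 8.34, 8.11 and 5.91 FPKM against 6.53, 7.39 and 7.22 FPKM (log2 difference -0.06). Both therefore had overlapping groups. Trim30a, known to dampen NF-kappaB signalling, was at 4.04, 3.77 and 4.11 FPKM against 3.84, 5.31 and 4.79 FPKM, and the ADP-ribosyltransferase gene Parp14 at 4.19, 4.05 and 4.65 FPKM against 4.05, 6.5 and 5.08 FPKM. Xaf1, an antagonist of inhibitors of apoptosis, was at 2.07, 2.35 and 1.88 FPKM against 1.45, 2.48 and 1.73 FPKM. In these 3 genes the groups overlapped, with labelled-knockout replicate 1 below at least 1 flox/flox library. Ifi35, which encodes a leucine zipper protein, was at 13.8, 15.0 and 13.7 FPKM against 9.94, 13.9 and 11.4 FPKM, a log2 difference of -0.27 that passed as lower only when labelled-knockout replicate 2 was left out (-0.39, limma adjusted p = 0.0274). Ifi35 shares 10.4% of its 50-base words with Gm11626 on the opposite strand. Ifi44 was too low to be tested, at 0.679, 1.39 and 1.27 FPKM against 0.548, 1.15 and 0.936 FPKM.

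**Figure D2:**
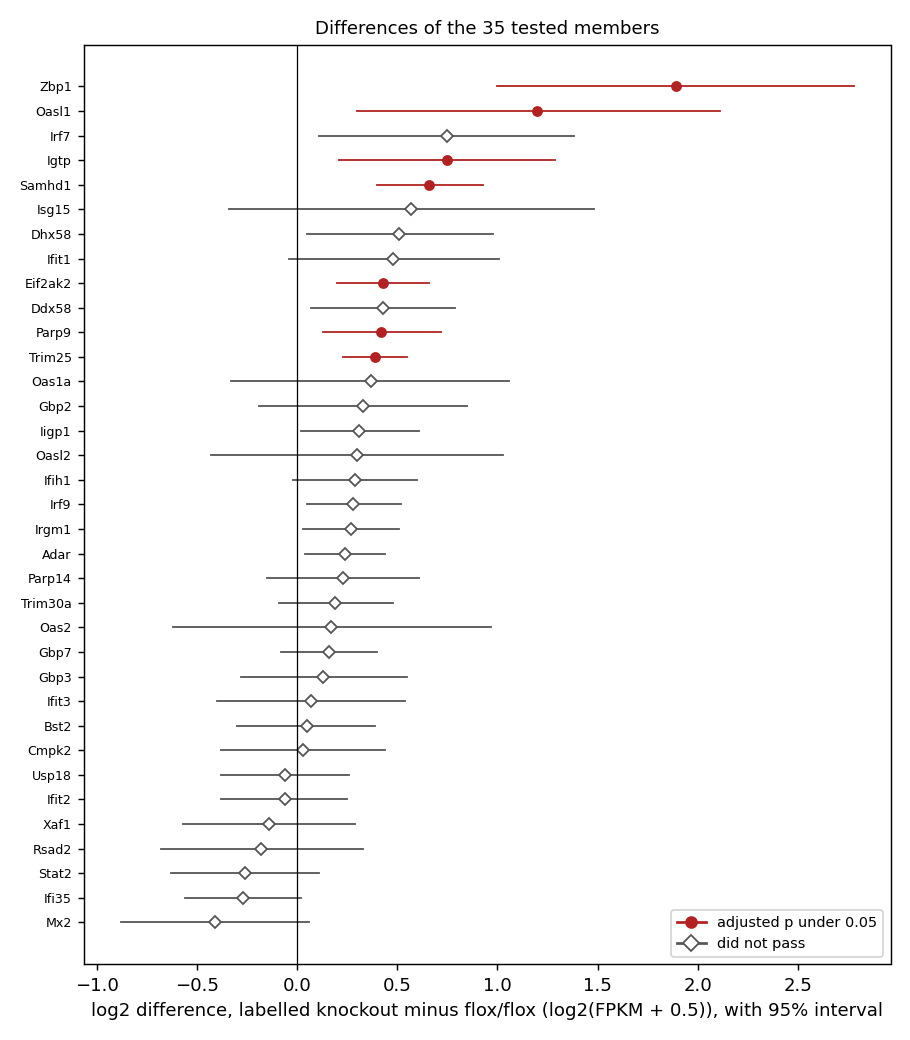
Log2 difference of each of the 35 tested genes, labelled knockout minus flox/flox, on the log2(FPKM + 0.5) scale, with its 95% interval from limma. Filled red points have an adjusted p under 0.05 and open points do not. The 7 red points run from 0.39 (Trim25) to 1.89 (Zbp1), and the open points from -0.41 (Mx2) to 0.75 (Irf7).

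The 3 labelled-knockout libraries differed among themselves in one order in most of these genes. Replicate 1 was lowest, replicate 3 between and replicate 2 highest in 29 of the 35 tested (82.9%), against 24.1% of all genes tested, and in 33 of all 39. Replicate 1 was the lowest of the 3 in 34 of 35 (97.1%, against 34.8%). The flox/flox libraries also differed, with flox/flox replicate 2 the highest of its group in 20 of 35 (57.1%, against 36.6%). Members share libraries, so these counts describe the libraries and are not separate observations. The median of the 39 genes, each taken as its log2 value minus the flox/flox mean, was -0.04 in labelled-knockout replicate 1, 0.47 in replicate 2 and 0.33 in replicate 3. Replicate 1 was above every flox/flox library in 15 genes and below every one in 14, whereas the counts were 32 and 1 in replicate 2 and 26 and 3 in replicate 3. Over all genes tested, 35.6% to 37.6% were above and 36% to 37.8% below in each of these libraries. The summed FPKM of the 39 genes was 167, 188 and 165.8 in the flox/flox libraries and 168.7, 255.5 and 208 in the labelled-knockout libraries. On that scale replicate 1 lay within the flox/flox range. As plain shares of a library, without the scaling in the deposited values, the sums were 572.2, 648.2 and 587.1 CPM against 799.7, 1179.8 and 988.9, with no overlap.

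Sums of other cells' markers moved in part in the same order. All 19 enterocyte markers ran from replicate 1 through replicate 3 to replicate 2, and 4 of the 19 (Cdx1, Cdx2, Alpi and Krt20) had 0 reads in every flox/flox library. Of the 16 enterocyte markers tested, 15 were higher, but 12 of these had a flox/flox mean under 1 FPKM and were tested only through the labelled-knockout libraries. The 11 natural killer and cytotoxic cell markers summed to 0.427 to 0.791 CPM in the flox/flox libraries and to 12.6, 32.4 and 20.9 in labelled-knockout replicates 1, 2 and 3. Klrb1c, Klrd1, Klre1, Gzmb and Prf1 had 0 reads in every flox/flox library. The 12 plasma cell markers summed to 361.9 to 453.9 against 1867.4, 3152 and 2343.7 CPM, with 7 of 11 tested higher (2 of them tested only through those libraries) and 1 lower, and Tnfrsf17 at 0 in the flox/flox libraries. The 13 intestinal secretory markers summed to 16.2 to 46.3 against 47.3, 206.5 and 121.3. By gene, that order held in 6 of 11 natural killer and cytotoxic cell markers and in 6 of 12 plasma cell markers. It held in 9 of 13 intestinal secretory markers and 11 of 20 lymphocyte markers, against 24.1% of all genes tested. The lymphocyte markers did not keep that order as a sum, at 430.2, 397.4 and 430.7 CPM in replicates 1, 2 and 3. In the lymphocyte list 15 of 15 tested were higher than in the flox/flox libraries, 14 of them tested only through the labelled-knockout libraries. Within that list the B-cell gene Cd79b was lowest in replicate 2 (838, 504 and 736 reads) and the T-cell gene Cd8a highest there (90, 307 and 181 reads). These 2 genes were picked after their values were seen. The 15 macrophage markers summed to 205.8 to 218.1 CPM against 295.1, 265.3 and 263.6. Of 11 macrophage markers tested, Lyz2 was higher and 4 were lower, with a median log2 difference of -0.36. The CPM sums are plain shares of a library, whereas the calls use the deposited scaling. Own-total scaling alone moved the median log2 difference of all genes tested to 0.36. Labelled-knockout CPM sums therefore sit higher than under the deposited scaling. Over all genes tested, 16.9% were higher and 17.2% lower. Other lists moved down. Of endothelial markers 12 of 12 were lower, with sums of 2172.2 to 2427.5 CPM against 1568.1, 1898.3 and 1672. Of acinar markers 9 of 11 tested were lower, with sums of 900 to 2789.1 CPM against 1000.9, 593.8 and 779.5. Of beta cell markers 11 of 12 were lower, with sums of 278768.3 to 337389.5 CPM against 174196.3, 161922.4 and 166112.1. Of 9 stellate cell and fibroblast markers tested, 5 were higher and 2 lower. In the ductal and other islet endocrine lists most genes tested did not pass. The 10 dendritic cell markers summed to 28.1 to 31.7 CPM against 78.4, 91.2 and 82. Of 5 dendritic cell markers tested, 2 were higher, both tested only through the labelled-knockout libraries, and 0 lower, with a median log2 difference of -0.07. Of 9 neutrophil markers, 0 reached the level tested. The acinar markers were lowest in labelled-knockout replicate 2 in 11 of 13, and the endothelial markers highest there in 11 of 12. The part of these cells in the levels of the interferon-stimulated genes was not tested.

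**Figure D3:**
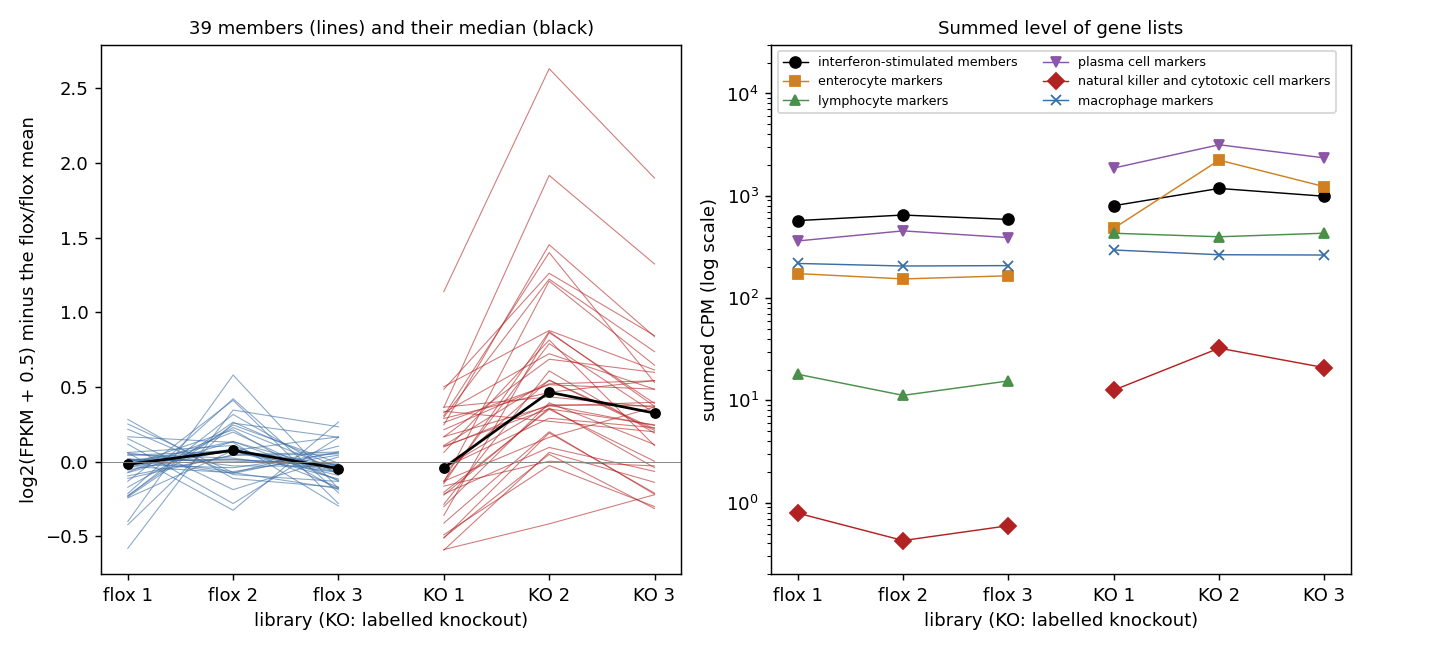
Left, log2(FPKM + 0.5) of each of the 39 genes minus its flox/flox mean in each library, with the median in black, and right, summed CPM of the 39 genes and of 5 marker lists on a log axis; lines join replicates only to guide the eye. The median sits at -0.04 in labelled-knockout replicate 1 and at 0.47 in replicate 2, and the enterocyte sum runs from 481.1 to 2230.3 in the same libraries.

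The count of genes called depended on which libraries entered. Without labelled-knockout replicate 1 there were 11 higher (31.4%, against 14.5% of all genes). Without replicate 2 there were 5 higher (14.3%, against 14%) and 1 lower, and without replicate 3 there were 3 higher (8.57%, against 9.45%), so both shares were at the background. Leaving out flox/flox replicate 3 gave 4 higher (11.4%, as over all genes). With labelled-knockout replicates 2 and 3 both left out, so that the lone library is assumed to vary like the others, 1 gene passed and the median log2 difference was -0.04. That gene was Zbp1 (log2 difference 1.14, limma adjusted p = 0.0272). Zbp1 passed in every alternative that tested it, with adjusted p from 0.00377 to 0.044. Most of these kept the same filter, which Zbp1 reached only through the labelled-knockout libraries, and they reuse the same libraries. They are therefore not separate support. With no filter on low values the limma adjusted p of Zbp1 was 0.0254. Samhd1 and Trim25 failed only with replicates 2 and 3 left out (adjusted p = 0.102 and 0.101), at log2 differences of 0.50 and 0.37. Eif2ak2 failed there (0.247) and without labelled-knockout replicate 3 (0.0641). Scaling moved every level: with each library scaled to its own total, the median of all genes shifted by 0.36 on the log2 scale. There 22 of the 35 members were higher, or 62.9%, against 52.1% of all genes, and the members' median exceeded that of all genes by 0.27, against 0.29 with the deposited scaling. With no filter on low values, 4 of 39 members were higher, against 7.25% of 32456 genes.

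**Figure D4:**
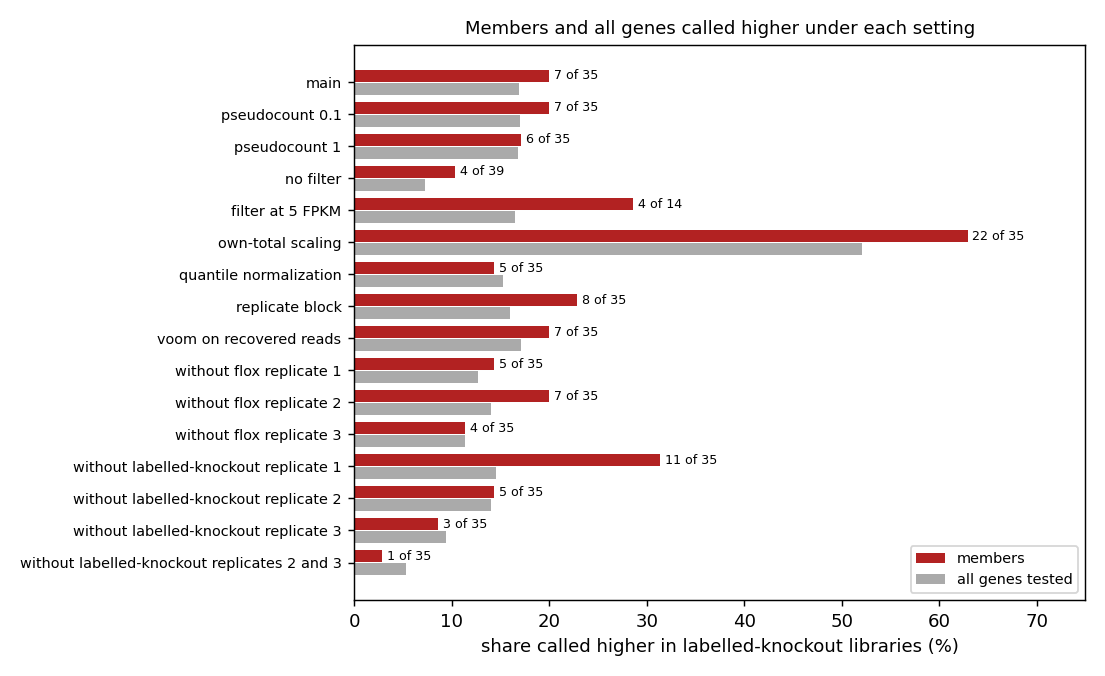
Share of the interferon-stimulated genes (red) and of all genes tested (grey) called higher in the labelled-knockout libraries at a limma adjusted p under 0.05, in percent, for the reported analysis (main) and each alternative. Red bars carry their counts, from 1 of 35 to 22 of 35, and in the reported analysis the bars stand at 20% and 16.9%.

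Genes upstream of these were taken from lists of the pathway. Of 21 interferon genes, 0 reached the level tested, 19 had 0 reads in every flox/flox library and 15 had 0 reads in every library. Ifnb1 had 0 reads in all 6 libraries, which allows up to 3 reads in each. For Ifng the counts were 0 in each flox/flox library and 4, 4 and 1 reads in the labelled-knockout libraries, too few to compare.

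Of 16 receptor and JAK-STAT genes, 14 were tested, 5 were higher (against 16.9% of all genes) and 9 did not pass, with a median log2 difference of 0.18. The receptor gene Ifnar1 was at 6.12, 7.05 and 6.55 FPKM against 8.76, 8.79 and 8.42 FPKM (log2 difference 0.37 ± 0.07 SE, limma adjusted p = 0.0101), and held in every leave-out of 1 library. Its partner Ifnar2 (0.35, adjusted p = 0.0358) held in 1 of the 6 leave-outs. The kinase gene Jak2 (0.33, adjusted p = 0.0136) and the phosphatase gene Ptpn6 (0.53, adjusted p = 0.0115), which is abundant in blood cells, also passed. The interferon gamma receptor gene Ifngr1 did not (0.21, adjusted p = 0.0808).

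Of 22 genes of nucleic acid sensing and interferon induction, 17 were tested, 8 were higher and 1 was lower, against 16.9% and 17.2% of all genes, with a median log2 difference of 0.40. Irf8, Nlrc5 and Aim2 among the 8 reached 1 FPKM only through the labelled-knockout libraries. Irf8, a transcription factor of B cells and myeloid cells, was at 0.862, 0.824 and 1.08 FPKM in the flox/flox libraries and 6.61, 6.78 and 6.34 FPKM in the labelled-knockout libraries (log2 difference 2.32 ± 0.10 SE, limma adjusted p = 5.98e-05). Unlike most of the 39 genes, Irf8 was nearly level across the labelled-knockout libraries. Tmem173, which encodes the DNA-pathway adaptor STING, was at 1.67, 2.04 and 2.08 FPKM against 4.23, 5.24 and 4.4 FPKM (1.08, limma adjusted p = 0.00125). Irf5 (1.13), the inflammasome DNA sensor gene Aim2 (1.11) and the MHC class I regulator gene Nlrc5 (1.10) were also higher, with limma adjusted p = 0.00064, 0.00902 and 0.00654. The kinase gene Ikbke was lower (-0.50, limma adjusted p = 0.0354), a call kept in 1 of 6 leave-outs. Irf3 and Irf1 did not pass, at log2 differences of -0.32 and -0.09 (limma adjusted p = 0.066 and 0.597).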

How the data were processed

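The labels name total RNA from pancreatic islets, in 3 libraries per genotype. The deposited table holds FPKM values of 54556 genes, made by the authors from reads aligned to GRCm38.p6 with HISAT2 2.0.5 and counted with featureCounts 1.5.0-p3, with DESeq2 1.16.1 also listed, per the submitters' processing notes; strand handling is not given there. Multiplied by gene length, 100% of the FPKM values fell within 0.1 of a whole number of reads, and the value of 1 read followed median-of-ratios factors, so the deposited values were scaled between libraries and reads were recovered; 0 columns were left unused.

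Values were tested as log2(FPKM + 0.5) with limma 3.58.1 in R 4.3.3 (eBayes with a mean trend), 3 libraries against 3, over the 14497 genes with a mean of at least 1 FPKM, with Benjamini-Hochberg adjustment over all of them and a threshold of 0.05. Permutation over 3 against 3 libraries cannot give a two-sided p below 0.10 and was not used. The script was tested on simulated data. No batch is named in the labels. The members and gene lists were chosen with earlier results of these data known. All 39 members are named. Of each pathway list up to 6 genes that passed are named, those of largest log2 difference in size, with Irf1, Irf3, Ifnar1, Ifnar2, Ifngr1, Ifnb1, Ifng and Dtx3l, and Mettl3, Ins1, Ins2 and Gcg served as checks; 1 gene this rule names is not reported here. Word sharing was counted over 50-base words of GENCODE M21 transcripts. Alternatives were other pseudocounts (0.1 and 1), no filter, a filter at 5 FPKM, own-total scaling, quantile normalization, a replicate block, voom on recovered reads and libraries left out.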

Additional observations from a re-analysis of the deposited data

How the results depend on the processing

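Among the 39 members no difference that had passed changed sign under any alternative run. All genes called numbered 4935; a filter at 5 FPKM left 3090, own-total scaling gave 8266 (7550 higher, 91.3% of the calls against 49.6%), there were 1317 without labelled-knockout replicates 2 and 3, and 2780 to 4236 with 1 library left out. Members called higher numbered 7; they were 4 with no filter (39 tested) and 4 of 14 under the filter at 5 FPKM, 22 under own-total scaling, 1 without labelled-knockout replicates 2 and 3, and 3 to 11 with 1 library left out. Members called lower numbered 0, and 1 under quantile normalization (Mx2) and 0 to 1 with 1 library left out. The members' median log2 difference of 0.28 was 0.63 with own-total scaling, -0.04 without labelled-knockout replicates 2 and 3, and 0.12 to 0.38 with 1 library left out. Deviations from the group means correlated weakly between libraries of the same replicate number (0.081, 0.075 and 0.042). Between different numbers the correlations were -0.068 to -0.011, so each library correlated best with its own number. Such weak values do not settle whether the replicate numbers pair the libraries. With a replicate block 4659 genes were called and 8 members were higher, Ddx58 and Isg15 (limma adjusted p = 0.0282 and 0.0253) entering and Parp9 (0.0839) leaving. Except where the number of genes or libraries shows it, the cause was not tested. Depth limits Oas3, Mx1, Gbp6 and the interferon genes, which had few reads.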

Other observations

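A further list of interferon-stimulated genes outside the 39 held 83 genes in the table, of which 63 were tested, 21 were higher, 6 were lower and 36 did not pass, with a median log2 difference of 0.18. Of the 21, 7 had a flox/flox mean under 1 FPKM (Ccl5, Ifit1bl1, Ifi209, Ms4a4c, Cxcl9, Sp110 and Gbp8) and were tested only through the labelled-knockout libraries. Over all genes tested 16.9% were higher and 17.2% lower, and this list was also chosen with earlier results known. The 6 lower genes had log2 differences from -0.66 to -0.39. The genes named below are those of largest difference in size, and all of them were higher. The largest difference was that of Ccl5, a chemokine made by T cells and natural killer cells, at 1.72, 0.36 and 0.14 FPKM in the flox/flox libraries and 7.69, 16.8 and 12 FPKM in the labelled-knockout libraries (log2 difference 3.50 ± 0.49 SE, limma adjusted p = 0.00297). Ifit1bl1, a relative of Ifit1, had 1, 0 and 0 reads against 36, 271 and 114 reads (2.51, limma adjusted p = 0.018), a call that ended with replicate 3 of either group left out (0.0524 and 0.0671). Epsti1 was at 0.769, 1.7 and 0.783 FPKM against 4.59, 13.1 and 6.81 FPKM (2.38, limma adjusted p = 0.00513). These 3 genes kept the order seen in most of the 39, with labelled-knockout replicate 1 lowest and replicate 2 highest.

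Other genes of that list were higher without that order. Lgals3bp, a secreted glycoprotein gene, was at 85.6, 78 and 79.7 FPKM against 460.6, 279 and 369.6 FPKM, highest in labelled-knockout replicate 1 (log2 difference 2.15, limma adjusted p = 0.000445). Ifi209, of the family of interferon-inducible DNA-binding proteins, was at 0.186, 0.351 and 0.456 FPKM against 2.73, 3.06 and 3.22 FPKM, and Ms4a4c at 0.377, 0.119 and 0.308 FPKM against 2.58, 2.48 and 3 FPKM (2.09 and 2.06, limma adjusted p = 0.000673 and 0.000969). Over the 63 genes tested, 35 (55.6%) ran from replicate 1 through replicate 3 to replicate 2, against 24.1% of all genes.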
